A study of Mus musculus with 4 samples.

Results

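The cells described here were macrophages that carried Gpnmb RNA in the mouse pancreas 2 days after caerulein injury. Caerulein is an analogue of the gut hormone cholecystokinin that overstimulates the enzyme-secreting acinar cells and causes acute pancreatitis. All mice were wild-type C57BL/6, and sorted DAPI-negative (viable) pancreatic cells were profiled with the 10x single-cell assay. There were 4 groups with 1 library each: caerulein after 2 days (C2D), caerulein after 6 weeks (C6W), saline after 2 days (S2D) and saline after 6 weeks (S6W). The labels used here give neither the age nor the number of the mice behind a library.

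Members were chosen by measured values in the C2D library. A barcode needed at least 500 UMIs (unique molecular identifiers, each standing for 1 captured RNA molecule), 200 genes or more, and no more than 20% mitochondrial UMIs. It further needed 10 or more UMIs of the complement genes C1qa, C1qb and C1qc together, at most 2 of the collagen gene Col3a1, 2 or more of Gpnmb, and under 3 of the division genes Mki67, Top2a and Cenpf together. These conditions held for 827 barcodes, among 4656 kept in C2D and 12807 kept in the 4 libraries. Without the Gpnmb condition the gate held 1753 macrophages in C2D, 89 in C6W, 67 in S2D and 114 in S6W. Because Gpnmb picked the cells, every contrast between cells of C2D below is a description. So is each Gpnmb level or ratio of the members against another library. The other libraries were gated without the Gpnmb condition, so genes that go with Gpnmb can be shifted by it too. Over S2D macrophages, Fabp5 had a log2 ratio of 5.36 for the members and 4.67 for all gated C2D macrophages. For Ctsd these were 4.44 and 3.98, and for Spp1 5.58 and 5.14. The part of this choice in other ratios of the members against another library was not tested.

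Gpnmb encodes a glycoprotein of the lysosome and the cell surface, known from macrophages that digest dead cells and lipid. Lysosomes break down engulfed material with acid hydrolases such as the cathepsins, in a lumen that a proton pump keeps acidic. The other genes given as marks of these cells are Fabp5, which binds fatty acids in the cytosol, Ctsd, a lysosomal aspartic protease, Spp1, the secreted protein osteopontin, and Trem2, a surface receptor for lipids. On the GRCm38 assembly, Gpnmb lies on chromosome 6 at 49036546 to 49070929 (plus strand), Fabp5 on chromosome 3 at 10012548 to 10016607 (plus), Ctsd on chromosome 7 at 142375911 to 142388038 (minus), Spp1 on chromosome 5 at 104435118 to 104441050 (plus) and Trem2 on chromosome 17 at 48346401 to 48354147 (plus).

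The MiT/TFE transcription factors, which are known to drive lysosomal genes, bind an E-box with the core CACGTG. Promoters were therefore searched for this core on both strands, in RefSeq windows of 250 bases before to 50 bases after the start site (GRCm38.p6). The core was found in 7 of 24 lysosomal hydrolase genes (29.17%) and 6 of 17 genes of the lysosomal membrane and proton pump (35.29%) that had a window, against 8.093% of all 27025 genes. The hydrolase list, here and below, also includes lysosomal genes that do not encode hydrolases, such as Npc1 and Grn. The 10-base palindrome known as the CLEAR element, which contains the core, was in none of these genes and in 0.37% of all genes. TCACGTG, which also contains the core, was in 6 of 24 hydrolase genes, 6 of 17 membrane and pump genes and 4.292% of all genes, and the related TCATGTG in 7 of 24, 2 of 17 and 4.311%. None of the 8 MHC class II genes with a window held any of these motifs, and neither did the windows of Gpnmb, Spp1 and Trem2. With so few genes and at most 8.093% over all genes, this absence does not set them apart from other genes. Stretches before the RefSeq start sites are shown for Ctsd, the most abundant of the marks, Lamp1, a lysosomal membrane protein with 4 cores, Atp6v1a, the catalytic subunit of the proton pump, and Gpnmb, the gene that chose the cells and has no core. Capitals mark CACGTG together with the T before it or the A after it that makes it TCACGTG on either strand.
Ctsd (chr7:142387908-142387937, minus strand): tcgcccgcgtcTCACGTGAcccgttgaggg
Lamp1 (chr8:13159041-13159160, plus strand): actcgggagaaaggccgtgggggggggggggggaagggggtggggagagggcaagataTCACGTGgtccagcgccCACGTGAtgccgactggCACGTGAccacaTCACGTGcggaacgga
Atp6v1a (chr16:44139310-44139409, minus strand): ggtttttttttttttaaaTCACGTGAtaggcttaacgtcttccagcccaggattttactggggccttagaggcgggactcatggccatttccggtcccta
Gpnmb (chr6:49036398-49036517, plus strand): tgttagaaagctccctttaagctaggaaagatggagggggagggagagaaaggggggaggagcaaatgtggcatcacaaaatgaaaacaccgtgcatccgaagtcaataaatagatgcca
The Ctsd stretch lies inside the gene as given above and overlaps a GENCODE exon, and the other 3 overlap no GENCODE exon. A match to these letters describes the window and does not show that a factor was bound.

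The libraries held 71547194 (C2D), 33788935 (C6W), 36914373 (S2D) and 29145886 (S6W) UMIs in all. With 1 library per group no difference could be tested against the spread between mice, and no p-value is given. Intervals are exact, at 95%, and cover counting error only. The median member had 16009 UMIs, against 12901.5 in C2D macrophages without Gpnmb UMIs (Gpnmb-free cells below), 10874 in C6W, 8582 in S2D and 8874.5 in S6W gated macrophages. Between 15 and 35 barcodes per library had a sequence that also occurred in another library, 6 of them among the gated macrophages of C2D, and leaving all of these out moved no count of genes below by more than 5. RNA of digestive enzymes, which macrophages do not make, was present in every gate: the 24 acinar genes summed to 77.5 UMIs per 10000 UMIs of the gate in the members, 130.8 in Gpnmb-free cells, 148 in C6W, 386 in S2D and 190.1 in S6W macrophages, and 255 in T cells of C2D.

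The members expressed the general genes of macrophages. The CSF-1 receptor gene Csf1r, on which macrophages depend, had 7.11 UMIs per 10000 in the members, against 9.75 in Gpnmb-free cells, 8.08 in C6W, 8.61 in S2D and 11.2 in S6W. The surface marker gene Adgre1 (F4/80) stood at 5.73 in the members, 5.42 in Gpnmb-free cells and 4.35 in S2D. T cells of C2D, which lack both genes, had 0.0846 of Csf1r and 0.0362 of Adgre1. Over the 16 macrophage identity genes measured, the median log2 ratio of members over Gpnmb-free cells was -0.03, and none passed 2-fold.

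RNA of genes that mark other cell types was also present. All 7 T cell markers had UMIs in the members, with a summed level of 0.371 per 10000, against 0.301 in Gpnmb-free cells, 0.627 in S2D and 44.9 in T cells. The 9 dendritic cell markers summed to 0.0969 in the members, 0.373 in Gpnmb-free cells, 0.772 in C6W and 1.54 in S2D. The mast cell genes Cpa3, Mcpt4, Tpsb2, Fcer1a and Cma1 and the neutrophil gene Ly6g were at 0 in the members. Kit, the other of the 6 mast cell genes, had 10 UMIs in the members and 13 in Gpnmb-free cells. All 5 natural killer cell markers had UMIs in the members, 43 together (0.0318 per 10000). Gpnmb-free cells had 5 such UMIs (0.00512), and T cells stood at 6.55 per 10000. The 7 endothelial markers summed to 0.162 in the members, 0.373 in Gpnmb-free cells, 0.0731 in C6W, 0.169 in S2D and 0.186 in S6W. The 7 neutrophil genes summed to 1.06 in the members, of which Csf3r held 1190 of 1430 UMIs, and to 0.7 in Gpnmb-free cells and 0.373 in S2D. B and plasma cell markers summed to 0.261 in the members, 0.32 in Gpnmb-free cells and 9.86 in S2D. Among 8 duct cell genes Cftr was at 0 in the members, and their sum was 1.35 in the members, 1.63 in Gpnmb-free cells, 0.198 in C6W, 0.254 in S2D, 0.457 in S6W and 4.76 in T cells of C2D. Of the 4 duct genes measured against other libraries, 3 were 2-fold or more higher over S2D (median 2.23) and 4 over C6W (median 2.74). Over all genes 11.5% were higher over S2D and 9.56% over C6W. All 8 fibroblast genes had UMIs in the members, and their sum was 0.669 in the members, 0.714 in Gpnmb-free cells, 0.324 in C6W, 0.22 in S2D and 0.587 in S6W. Duct and fibroblast RNA was thus higher in both C2D gates than in each other library. The part of such RNA in the results was not tested. Scrublet called 1 member a doublet, and 49 members and 43 Gpnmb-free cells fell among the highest scores at an expected rate of 0.8% per 1000 barcodes.

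Among gated macrophages, Gpnmb RNA was far more frequent in C2D than in the other libraries. Of the 1753 gated cells of C2D, 47.2% carried 2 or more Gpnmb UMIs (interval 44.8% to 49.5%). The share was 0% of 89 cells in C6W (0% to 4.06%), 2.985% of 67 cells in S2D (0.364% to 10.4%) and 0.877% of 114 cells in S6W (0.0222% to 4.79%). Since C2D was the deepest library, each cell was also thinned to 5000 UMIs before the gate was applied. Then 667 of 1926 gated cells of C2D (34.6%) had 2 or more. It was 0 of 81 cells in C6W, 0 of 54 in S2D and 0 of 105 in S6W, with upper limits of 4.45%, 6.60% and 3.45%. Thinning left out 88 cells of the original gate in C2D, 9 in C6W, 12 in S2D and 9 in S6W. The division condition was also applied after thinning, and the C2D cells that failed only this condition of the gate went from 352 to 85. The 1926 cells are thus not the same set as the 1753. At 5000 UMIs, 89.04% of the members still showed a Gpnmb UMI, beside 1.47% of 68 T cells and 11.2% of 578 fibroblasts of C2D, whose median depth before thinning was 5794 and 22354.5 UMIs. At full depth the share was 1.82% of 110 T cells and 35.05% of 582 fibroblasts.

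The members differed widely in Gpnmb itself: their quartiles were 4, 9 and 18 UMIs and the highest was 128. At the lower edge of the rule 99 members had 2 UMIs and 72 had 3, while 172 gated cells just outside had 1. A total of 1170 barcodes of C2D had 2 or more Gpnmb UMIs, and 43 of these failed only the C1q condition, 30 only the Col3a1 condition and 177 only the division condition. Near those edges, 4 members had 10 or 11 C1q UMIs and 1 barcode that failed only there had 8 or 9. Likewise 47 members had 2 Col3a1 UMIs and 14 such barcodes had 3, and 95 members had 2 division UMIs and 67 such barcodes had 3.

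Of the gates compared, the members had the highest level of the other 4 marks. Ctsd reached 100.3 UMIs per 10000 in the members (99.8 to 100.8), against 37.6 in Gpnmb-free cells, 10.6 in C6W, 4.05 in S2D (3.55 to 4.60) and 8.201 in S6W. Fabp5 stood at 18.3 (18.1 to 18.5) in the members, 3.01 in Gpnmb-free cells, 0.313 in C6W, 0.3896 in S2D (0.247 to 0.585) and 0.746 in S6W. Spp1 stood at 24.05 in the members, 9.07 in Gpnmb-free cells, 1.01 in C6W, 0.4404 in S2D and 0.718 in S6W. Cells of C2D with no Gpnmb UMI thus carried these genes at levels above the macrophages of each other library. Trem2 differed least, at 16.05 in the members, 9.299 in Gpnmb-free cells, 3.05 in C6W, 2.35 in S2D and 2.05 in S6W. T cells of C2D had 0.0483 UMIs per 10000 of Trem2 and 0.664 of Fabp5, and 3.32 of Ctsd. Their Spp1 level was 7.38, of which 1 barcode held 587 of 611 UMIs, and 0.301 without it. This T cell gate also held 31.3 UMIs per 10000 of fibroblast markers.

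**Figure D1:**
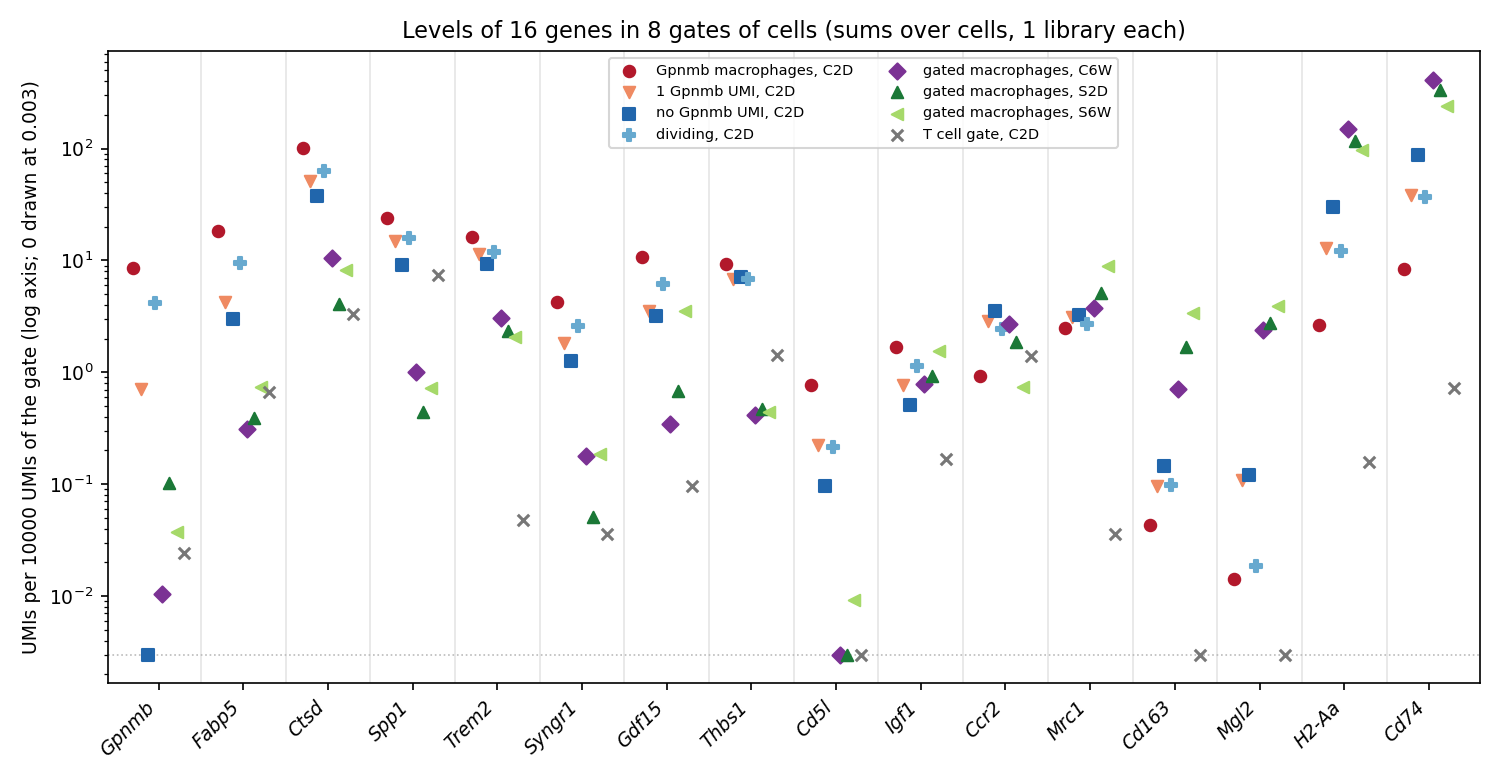
Level of 16 genes (UMIs per 10000 UMIs of the gate, log axis) in gates of cells from the 4 libraries, each symbol being the sum over the cells of 1 gate. Gpnmb macrophages lie at the top for Gpnmb, Fabp5, Ctsd, Spp1 and Trem2, with Ctsd at 100.3, and below the macrophages of each other library for H2-Aa and Cd74, with H2-Aa at 2.62.

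Within C2D, few genes differed from Gpnmb-free cells, and some of them steeply. Log2 ratios here and below were scaled by TMM-adjusted totals, while levels are per 10000 raw UMIs. Among 8477 genes with 100 or more UMIs over both sums, 103 were 2-fold or more higher in the members (1.22%) and 133 2-fold or more lower (1.57%). After Gpnmb, whose UMIs the rule set, the highest ratio was that of F7, coagulation factor VII, with 165 UMIs in the members against 8 in Gpnmb-free cells, a log2 ratio of 3.89 (2.87 to 5.12). Ankrd1, an ankyrin repeat protein, followed with 102 against 6 UMIs (3.61) and Cdo1, a cysteine dioxygenase, with 135 against 11 (3.14). Cd5l, a secreted scavenger protein of macrophages, had 1031 against 93 UMIs and a log2 ratio of 2.99 (2.68 to 3.31). The other genes of the 15 highest were the metalloprotease gene Mmp27 (2.67), Fabp5 (2.59), the serotonin receptor gene Htr2b (2.58), the chemokine gene Cxcl9 (2.56), the proton pump subunit gene Atp6v0d2 (2.38), Ahnak2 (2.25), the fatty acid binder Fabp4 (2.18), the aminopeptidase gene Anpep (2.15), Saa3 (2.11), a serum amyloid, and Igf2r (2.09), a receptor that sorts hydrolases to lysosomes. Of these, only Gpnmb and Fabp5 had more than 1 UMI per 10000 in the members.

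The 10 lowest ratios within C2D were led by the machinery that presents peptides on MHC class II. H2-Eb1 stood at 2.15 UMIs per 10000 in the members against 25.5 in Gpnmb-free cells (log2 ratio -3.58), H2-Aa at 2.62 against 29.8 (-3.52), and H2-Ab1 at 2.54 against 26.5 (-3.39). Cd74, the invariant chain of class II molecules, stood at 8.32 against 87.7 (-3.41), and Ciita, their main transcriptional activator, had 37 against 219 UMIs (-3.04). All 7 class II genes measured were 2-fold or more lower (median -3.39), against 1.57% of all genes. The lectin genes Mgl2 (-3.13) and Clec4b1 (-2.66), Flt3 (-2.57), a growth factor receptor of dendritic cells, Plac8 (-2.56) and the leukotriene receptor gene Ltb4r1 (-2.33) made up the rest. Against S2D and C6W the class II medians were -5.53 and -5.84, with Cd74 at 337 and 414.

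Per cell, class II RNA was split within C2D. With each cell thinned to 5000 UMIs, 83.5% of 812 members had under 3 UMIs of H2-Aa, H2-Ab1, H2-Eb1 and Cd74 together, against 43.9% of 688 Gpnmb-free cells. Of the members 4.80% had 50 or more, against 34.01% of Gpnmb-free cells. In the other libraries 97.5% of 80 cells in C6W, 90.9% of 55 cells in S2D and 79.05% of 105 cells in S6W had 50 or more. T cells of C2D had under 3 UMIs in 94.1% of 68 cells. Before thinning, 86.8% of 827 members and 48.7% of 754 Gpnmb-free cells had under 10 of these UMIs, against 0% of cells in C6W, 5.97% in S2D, 11.4% in S6W and 100% of T cells.

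**Figure D2:**
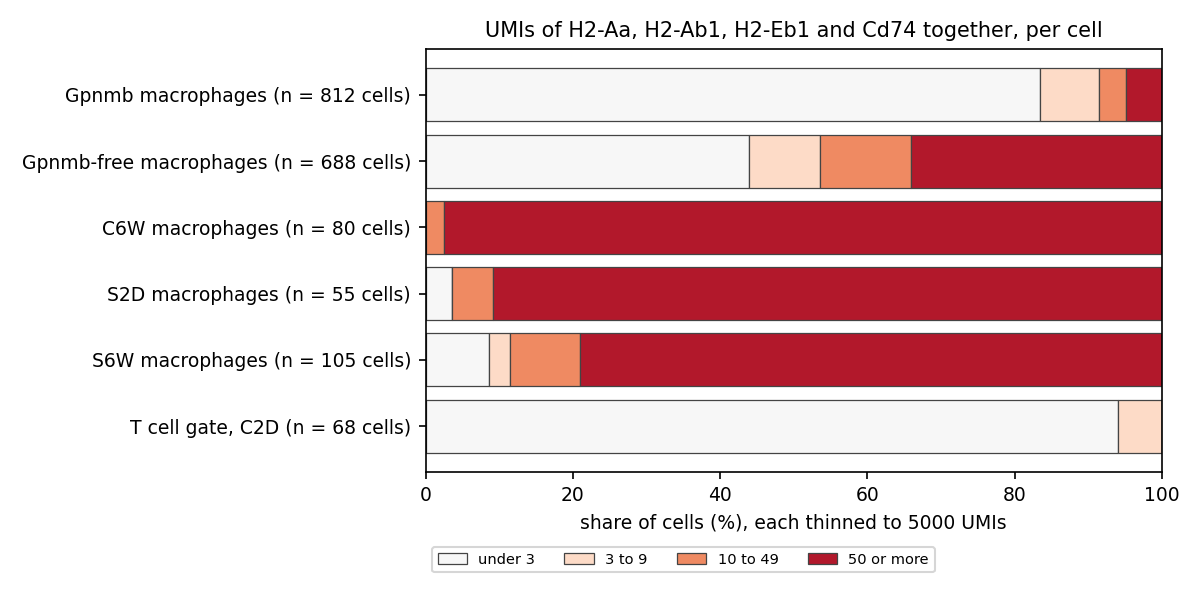
Share of cells (%, each thinned to 5000 UMIs) by their UMIs of H2-Aa, H2-Ab1, H2-Eb1 and Cd74 together, by gate. Of the Gpnmb macrophages 83.5% lie in the lowest class, against 43.9% of Gpnmb-free macrophages of the same library, while 97.5% of C6W and 90.9% of S2D macrophages lie in the highest.

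Because Gpnmb-free cells were a mixture in this respect, the contrast was repeated with only the cells of both gates that had under 10 class II UMIs, 718 members and 367 Gpnmb-free cells, a comparison chosen after these values were seen. In that contrast 67 of 7773 genes were 2-fold or more higher (0.862%) and 51 lower (0.656%). Fabp5 had a log2 ratio of 2.36, Cd5l of 2.38, Fabp4 of 2.13, Gdf15 of 1.82, Igf1 of 1.33 and Ctsd of 1.09, while Ccr2 was lower at -1.85 and Plac8 at -2.44. Spp1 was at 0.84 and Ctsb at 0.90 in this contrast, under 2-fold, and at 1.40 and 1.17 over all cells of both gates.

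Lysosomal enzyme genes were mostly higher, by modest factors. Of 31 hydrolase and cathepsin genes measured, 30 had a positive log2 ratio of members over Gpnmb-free cells (median 0.50, against 0.01 over all genes), and 4 passed 2-fold: Ctsd (1.41), Galns (1.21), Ctsb (1.17) and Naglu (1.12). Galns and Naglu, which cut glycosaminoglycans, were low in level (0.536 and 0.919 UMIs per 10000 in the members, 0.231 and 0.421 in Gpnmb-free cells). The cysteine protease gene Ctsb stood at 84.4 in the members, 37.1 in Gpnmb-free cells, 20.7 in C6W, 15.4 in S2D and 26.2 in S6W. Ctsc, a protease that activates granule enzymes, was the exception at 6.97 in the members and 10.6 in Gpnmb-free cells (-0.61). Among 22 genes of the lysosomal membrane and its proton pump 21 had a positive ratio (median 0.33), and Atp6v0d2 (2.38) and the tetraspanin gene Cd63 (1.01) passed 2-fold. Over all genes 1.22% were 2-fold or more higher within C2D and 1.57% lower.

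Against S2D macrophages 15 of the 31 hydrolase genes were 2-fold or more higher and none lower (median 0.92). Of 7513 genes compared with S2D, 865 were 2-fold or more higher (11.5%) and 652 lower (8.68%), and the median over all of them was 0.03; plain totals in place of TMM raised that median by 0.19 and gave 1204 higher and 439 lower. Against C6W macrophages 10 of 31 hydrolase genes were 2-fold or more higher and none lower (median 0.73). There, 721 of 7545 genes were 2-fold or more higher (9.56%) and 551 lower (7.3%), and the median over all of them was 0.02; plain totals raised it by 0.20 and gave 1013 higher and 355 lower. Ctsd (4.44), Naglu (2.76), Ctsb (2.26), the cholesterol transporter gene Npc1 (1.82), Galns (1.79) and Ctsl (1.72), a further cathepsin, led the list against S2D. Of these, Npc1 does not encode a hydrolase.

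For the membrane and proton pump list, 8 of 22 genes were 2-fold or more higher against S2D and 2 of 22 against C6W, where that share is near the background. With S6W as the saline library, 742 of 7598 genes were 2-fold or more higher (9.77%) and 657 lower (8.65%). There, 2 of 22 membrane and pump genes were higher and 1 lower, again near the background, while 12 of 31 hydrolase genes were higher and none lower. Lamp1, whose promoter stretch with 4 cores is shown above, stood at 15.5 UMIs per 10000 in the members, against 9.99 in Gpnmb-free cells (log2 ratio 0.63), 7.13 in C6W and 5.47 in S2D (1.31). Atp6v1a stood at 2.76 in the members, 1.88 in Gpnmb-free cells (0.54), 1.36 in C6W, 1.34 in S2D (0.85) and 2.94 in S6W. The MiT/TFE factors themselves were low: Mitf stood at 0.339 in the members and 0.271 in Gpnmb-free cells, Tfeb at 0.309 and 0.211, and Tfe3 at 0.538 and 0.642. Tfec, the family member known from macrophages, had 0.132 in the members, 0.0717 in Gpnmb-free cells and 1 UMI in S2D, a log2 ratio over S2D of 2.76 (0.27 to 8.08).

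**Figure D3:**
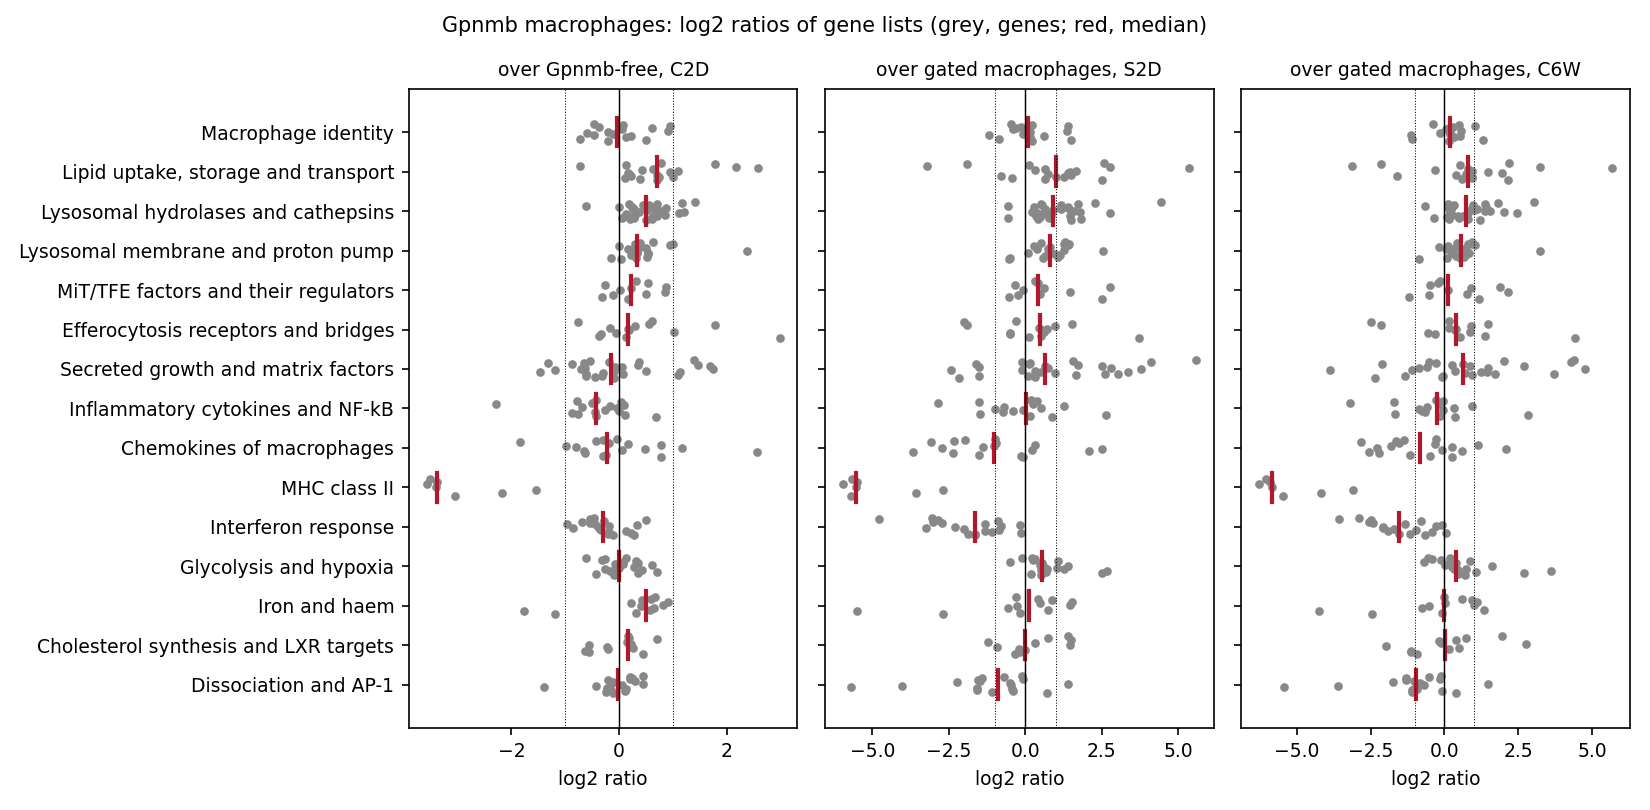
Log2 ratio of Gpnmb macrophages over Gpnmb-free macrophages of C2D, over S2D macrophages and over C6W macrophages, for the measured genes of the gene lists and the list medians. Lysosomal hydrolases lie above 0 in each comparison (medians 0.50, 0.92 and 0.73) and MHC class II far below it (medians -3.39, -5.53 and -5.84).

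Genes of lipid uptake, storage and transport were mostly higher, with 18 of 19 above 0 within C2D and 15 of 19 over S2D. Apoe, the lipoprotein that carries exported cholesterol, was the most abundant of those named, at 698 UMIs per 10000 in the members, 359.6 in Gpnmb-free cells, 217 in C6W, 224 in S2D and 216 in S6W (log2 ratio 0.95 within C2D and 1.44 over S2D). Of 19 list genes measured, 5 were 2-fold or more higher than in Gpnmb-free cells (Fabp5, Fabp4, Cd36, Lgals3 and Cd63), none lower, and the median was 0.70. This list is broad: it includes the galectin gene Lgals3 and the tetraspanin gene Cd63, and Cd63 also counts in the lysosomal membrane list. Over all genes 1.22% were 2-fold or more higher and 1.57% lower within C2D, and 11.5% and 8.68% against S2D. Against S2D 9 of 19 list genes were 2-fold or more higher and 2 lower (median 0.998), the latter share near the background. The cholesterol exporter gene Abca1 was among the higher ones (4.11 in the members, 1.36 in S2D, log2 ratio 1.41). The lower ones were the lipoprotein lipase gene Lpl, at 0.242 in the members and 1.95 in S2D (-3.20), and the fatty acid receptor gene Cd36, at 0.604 in the members, 1.999 in S2D (-1.92), 2.31 in C6W and 5.396 in S6W. Within C2D, Cd36 was higher in the members, with 0.175 in Gpnmb-free cells (1.78). None of 13 cholesterol synthesis and LXR target genes passed 2-fold within C2D (median 0.16). In the iron list the ferritin light chain gene Ftl1 stood at 194 in the members, 103 in Gpnmb-free cells (0.91) and 58.5 in S2D (1.53).

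Genes for secreted growth and matrix factors held several of the steepest differences from the other libraries. Gdf15, a stress cytokine of the TGF-beta family, stood at 10.7 UMIs per 10000 in the members, 3.18 in Gpnmb-free cells (1.74), 0.344 in C6W (4.75), 0.678 in S2D (3.79) and 3.56 in S6W (1.49). Thbs1, the matricellular protein thrombospondin, was at 9.35 in the members and 7.16 in Gpnmb-free cells (0.38), but at 0.418 in C6W and 0.474 in S2D (4.11). Fibroblasts of C2D carried 10.9 of Thbs1 and T cells 1.44. Igf1, a growth factor of tissue repair, was at 1.68 in the members, 0.514 in Gpnmb-free cells (1.69), 0.793 in C6W, 0.932 in S2D and 1.55 in S6W.

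The cytokine genes Osm, with 2.95 UMIs per 10000 in the members, 2.797 in Gpnmb-free cells and 0.373 in S2D, and Il10, with 3.99, 3.65 and 0.559, were near level within C2D and low in S2D (log2 ratios over S2D of 2.79 and 2.64). The angiogenic factor gene Vegfa followed the same order, at 0.7701 in the members, 0.599 in Gpnmb-free cells and 0.119 in S2D (2.51). Tgfbi, a matrix protein gene that TGF-beta induces, was lower within C2D, at 5.23 in the members and 13.03 in Gpnmb-free cells (-1.33), and stood at 4.17 in S2D (0.14). Of 28 secreted factor genes measured within C2D, 6 were 2-fold or more higher and 3 lower (median -0.15). Of 27 against S2D, 11 were higher and 5 lower (median 0.65). Over all genes 1.22% were 2-fold or more higher and 1.57% lower within C2D, and 11.5% and 8.68% against S2D.

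Genes of alternative activation differed in both directions. Chil3, a chitinase-like lectin, was at 3.05 UMIs per 10000 in the members and 2.83 in Gpnmb-free cells, with 0 UMIs in C6W and 9 in S2D (log2 ratio 4.13). The arginase gene Arg1 was at 0.469 in the members and 0.442 in Gpnmb-free cells and had no UMI in the other libraries, which puts the members at least 3.01 on the log2 scale above S2D and 3.70 above C6W, taking 3 counts for each such gate. T cells of C2D had 0.314 of Arg1 and 0.145 of Chil3. Retnla, which type 2 cytokines induce, had 0 UMIs in the members, 0 in Gpnmb-free cells, 248 in C6W, 1 in S2D and 2220 in S6W. The haemoglobin receptor gene Cd163 stood at 0.0429 in the members, 0.144 in Gpnmb-free cells, 0.7099 in C6W, 1.69 in S2D (-5.50) and 3.35 in S6W. Mgl2 had 19 UMIs in the members against 164 in S2D (-7.82) and 227 in C6W (-7.60). Of the 8 list genes measured against S2D, 2 were 2-fold or more higher and 5 lower (median -1.504). Over all genes 11.5% were higher and 8.68% lower. With at least 400 UMIs per gene the list median was 1.30, so the sign of this median depends on the filter.

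Resident macrophage genes depended on the library they were set against. The mannose receptor gene Mrc1 was at 2.47 UMIs per 10000 in the members, 3.25 in Gpnmb-free cells, 3.79 in C6W, 5.15 in S2D and 8.96 in S6W. Lyve1, a hyaluronan receptor of resident cells, had 7 UMIs in the members, 45 in S2D and 438 in S6W. The folate receptor gene Folr2 was at 1.77 in the members, 1.101 in Gpnmb-free cells, 1.46 in C6W, 1.36 in S2D and 5.601 in S6W. Of 12 resident genes measured against S2D 2 were 2-fold or more higher and 2 lower (median 0.09). With S6W, 1 of 15 was higher and 8 were lower (median -1.76). Over all genes 11.5% were higher and 8.68% lower against S2D, and 9.77% and 8.65% against S6W. Only the share lower with S6W was far from these.

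Among monocyte genes, Ccr2, the receptor that draws monocytes out of marrow and blood, stood at 0.931 UMIs per 10000 in the members, 3.53 in Gpnmb-free cells (-1.93), 2.68 in C6W (-1.73), 1.85 in S2D (-1.18) and 0.746 in S6W. Plac8 was at 0.129 in the members and 0.756 in Gpnmb-free cells, and fibroblasts (7.81) and T cells (2.37) of C2D carried more of it. Mgst1, a microsomal glutathione transferase, was higher, at 1.31 in the members, 0.392 in Gpnmb-free cells (1.73) and 0.169 in S2D. Of 13 monocyte genes measured within C2D, 1 was 2-fold or more higher and 3 lower (median -0.50). Over all genes 1.22% were higher and 1.57% lower.

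Many chemokine and interferon genes were lower than in S2D and C6W. Ccl4 stood at 37.8 UMIs per 10000 in the members, 50.8 in Gpnmb-free cells, 102 in C6W, 166 in S2D (-2.32) and 161 in S6W. Against S2D 10 of 18 chemokine genes were 2-fold or more lower and 2 higher (median -1.03), and against C6W 9 were lower and 2 higher (median -0.82). Over all genes 8.68% were lower and 11.5% higher against S2D, and 7.3% and 9.56% against C6W. The share of higher chemokine genes was thus near the background in both. Within C2D 1 was lower, Ccl5 (-1.84), and 2 were higher, Cxcl9 (2.56) and Ccl24 (1.18). The list median was -0.22, and over all genes 1.57% were lower and 1.22% higher within C2D. T cells held 17.1 of Ccl5 per 10000. Cxcl1, which attracts neutrophils, was at 10.2 in the members, 7.29 in Gpnmb-free cells, 1.56 in S2D (2.52) and 12.2 in S6W.

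Of 19 interferon-induced genes measured, 14 were 2-fold or more lower against S2D (median -1.63) and 12 against C6W (median -1.52), with none 2-fold higher. Over all genes 8.68% were lower against S2D and 7.3% against C6W. The ubiquitin-like gene Isg15 was at 1.82 UMIs per 10000 in the members, 2.64 in Gpnmb-free cells, 8.54 in C6W and 10.6 in S2D (-2.74). Ifit2, which binds viral RNA, was at 0.0592 in the members, 0.08500 in Gpnmb-free cells, 0.606 in C6W and 1.42 in S2D (-4.78). With S6W as the saline library 9 of 19 were 2-fold or more lower and none higher, while 7 of 19 had a ratio above 0 (median -0.88). Within C2D none of 20 passed 2-fold and the median was -0.30.

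Among inflammatory genes the cytokine gene Il1b stood at 20.7 UMIs per 10000 in the members, 35.2 in Gpnmb-free cells (-0.78), 18.5 in C6W, 13.8 in S2D and 15.7 in S6W. Tnf was at 6.04 in the members and 5.86 in Gpnmb-free cells, against 17.1 in C6W, 15.03 in S2D (-1.51) and 22.7 in S6W. Il12b, a subunit of interleukin 12, had 49 UMIs in the members and 172 in Gpnmb-free cells (-2.29). Over all genes 8.68% were 2-fold or more lower than in S2D and 11.5% higher. Of 18 genes that tissue dissociation is known to induce, 9 were 2-fold or more lower than in S2D and 1 was higher, Ier3 at 1.38 (median -0.89). Among the lower ones were the heat shock gene Hspa1a at 0.792 in the members and 11.2 in S2D (-4.02), Egr1 at 5.81 and 23.97 (-2.24) and Jun at 7.06 and 16.4 (-1.41). Their part in the differences from S2D was not tested. Within C2D 1 of 18 was 2-fold lower (Hspa1b, -1.38), against 1.57% of all genes, and the list median was -0.02.

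The highest ratios against S2D joined the marks to genes of other kinds. Syngr1, a vesicle membrane protein, had 5796 UMIs in the members against 3 in S2D, a log2 ratio of 6.21 (4.66 to 8.48), and its level was 4.29 per 10000 in the members and 1.25 in Gpnmb-free cells. Pdpn, the surface mucin podoplanin, had 1402 UMIs in the members against 1 in S2D (5.74, 3.26 to 11.05) and the growth factor gene Gdf3 had 1332 against 1 (5.67, 3.19 to 10.97). Ctla2a (4.62, 2.76 to 7.67), a cathepsin inhibitor gene, and the glycogen phosphorylase gene Pygl (4.002, 2.14 to 7.05) had 2 UMIs each in S2D. The heparanase gene Hpse (4.27, 1.78 to 9.58), Inf2 (3.87, 1.39 to 9.18) and Igf2r (3.81, 1.32 to 9.12) had 1 each, so these intervals are wide.

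Against C6W, leaving aside Gpnmb, which chose the members and had 1 UMI in C6W, the highest ratio was that of Reg3b, an antimicrobial lectin of injured acinar cells, at 2.697 UMIs per 10000 in the members, 4.88 in Gpnmb-free cells, 10.9 in T cells of C2D and 0.0209 in C6W. Reg2, of the same family, was at 1.25 in the members and 5.34 in T cells of C2D, so both genes lay below their level in T cells, which lack them. Slc6a8, the creatine transporter gene, had 1014 UMIs in the members and 1 in C6W (5.96, 3.48 to 11.27). At the lower end, H2-M2 had 3 UMIs in the members and 161 in C6W (-9.77, -12.06 to -8.20), and the B cell chemokine gene Cxcl13 had 0 against 104.

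Dividing macrophages of C2D, the 352 cells with 3 or more division UMIs, were gated with no condition on Gpnmb, and 177 of them had 2 or more Gpnmb UMIs. They are therefore set beside all 1753 gated macrophages of C2D, which are also mixed in Gpnmb. Gpnmb stood at 4.15 UMIs per 10000 in dividing cells and 4.54 in all gated cells, Fabp5 at 9.54 and 11.2, Ctsd at 63.1 and 71.9, Spp1 at 15.8 and 17.5, and Trem2 at 11.97 and 13.05. Per 10000 UMIs each mark was thus slightly lower in dividing cells. Per cell, Gpnmb was at 6.94 UMIs in dividing cells and 6.66 in all gated cells, Ctsd at 105.5 and 105.4, and Spp1 at 26.49 and 25.65. Trem2 was at 20.01 and 19.12 per cell and Fabp5 at 15.95 and 16.37, with a median depth of 15843.5 and 14300 UMIs. Members over dividing cells gave 15 of 8174 genes 2-fold or more higher (0.184%) and 113 lower (1.38%). Cell cycle genes, by which the gates were parted, made up the 10 lowest, while Ankrd1 (2.91), Cdo1 (2.09) and Cd5l (1.84) were the highest.

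Across C2D macrophages the differences were graded with Gpnmb. In cells thinned to 5000 UMIs, mean Fabp5 was, by 0, 1, 2 to 3, 4 to 7 and 8 or more Gpnmb UMIs, 1.84, 4.06, 7.32, 10.2 and 14.1 UMIs. Ctsd followed the same order with 21.2, 35.3, 45.2, 50.5 and 62.4, Cd5l with 0.05399, 0.146, 0.189, 0.451 and 0.992, and the lysozyme gene Lyz2 with 74.9, 103, 121, 139 and 155. Cd74 ran the opposite way with 36.95, 9.15, 4.22, 2.97 and 1.05, and so did Ccr2 with 1.68, 0.917, 0.614, 0.302 and 0.142 and Csf1r with 4.85, 4.36, 3.91, 3.39 and 2.64. Thbs1 showed no such order, with 3.804, 4.82, 4.65, 4.93 and 4.46, and neither did Il10, with 1.84, 2.65, 2.06, 1.88 and 2.07. The 5 classes held 889, 206, 228, 215 and 127 cells. They were set after thinning, so the class of 0 was not the Gpnmb-free gate of 688 thinned cells. Of the 812 thinned members 723 kept a Gpnmb UMI, and the others fell in the class of 0. Median depth before thinning was 13720, 14540, 15250, 16630 and 17650 UMIs. Depth thus moved with Gpnmb, and its part beyond thinning was not tested.

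**Figure D4:**
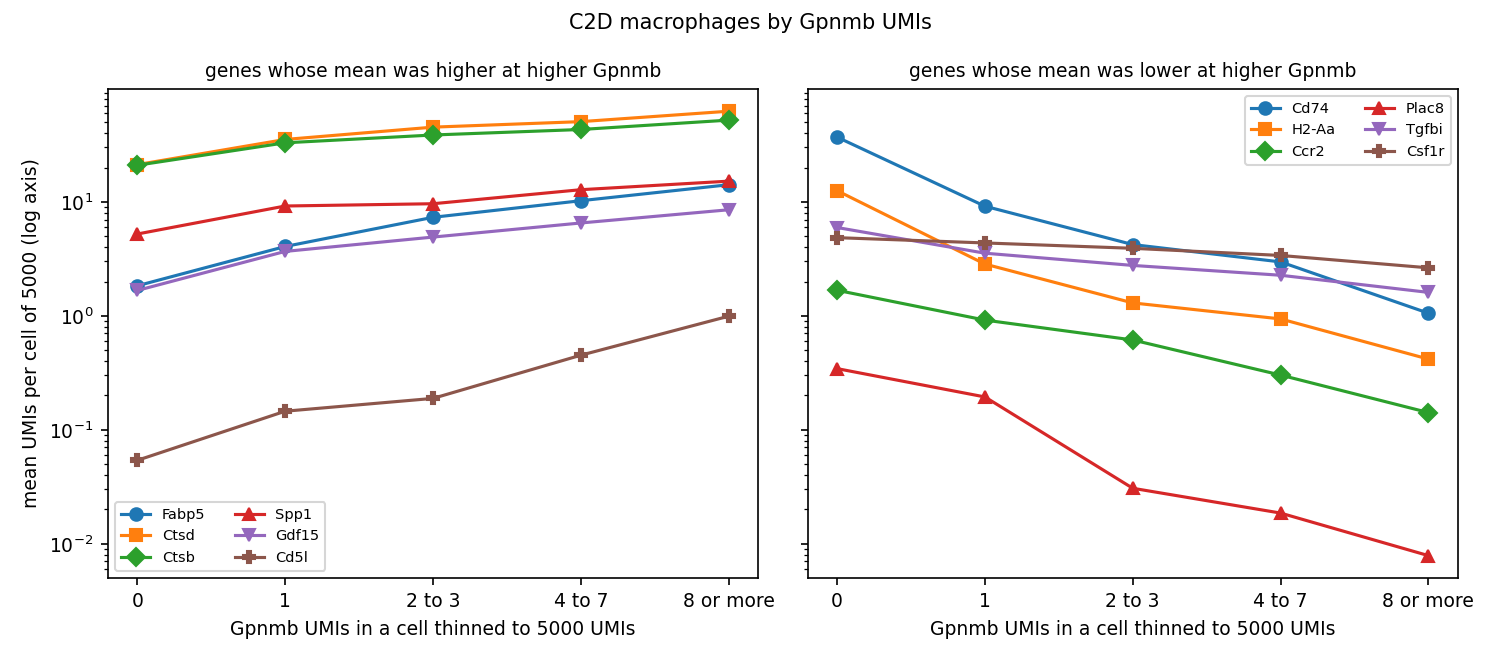
Mean UMIs per cell (log axis) of selected genes in C2D macrophages thinned to 5000 UMIs, by the Gpnmb UMIs of the cell, with 889, 206, 228, 215 and 127 cells from left to right. Fabp5 runs over 1.84, 4.06, 7.32, 10.2 and 14.1 and Ccr2 over 1.68, 0.917, 0.614, 0.302 and 0.142 in the 5 classes.

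Within the 812 members of 5000 or more UMIs, correlations with Gpnmb were at most 0.38 among the genes compared. Thinned Gpnmb counts were low, with a median of 3 UMIs, and Gpnmb had chosen these cells. How far this lowered the correlations was not tested, so they do not show how closely a gene was tied to Gpnmb. Over thinned cells, which share 1 library and its free RNA, the highest Spearman correlations with Gpnmb among 4404 genes were those of Ftl1 (0.38), the lysosomal activator precursor gene Psap (0.36), Fabp5 (0.36), Ctsb (0.35), the galectin gene Lgals3 (0.33), Ctsd (0.30), Lyz2 (0.28), Apoe (0.27), Gdf15 (0.25), Adam8 (0.24), Spp1 (0.23) and Cd63 (0.22). The lowest were those of Tgfbi (-0.25), Rack1 (-0.24), Fau (-0.22), Csf1r (-0.21), Ctsc (-0.21) and Ifi27l2a (-0.20). The median over all genes was -0.01, and the correlation of thinned Gpnmb with depth before thinning was 0.15.

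Some of the genes that differed had UMIs in few members. At 5000 UMIs Cd5l had a UMI in 14.04% of members, against 3.49% of Gpnmb-free cells and 0% of 68 T cells. F7 had a UMI in 3.82% of members, Saa3 in 3.69%, Atp6v0d2 in 6.28% and Fabp4 in 14.9%, against 0.436%, 1.16%, 2.62% and 4.94% of Gpnmb-free cells; the T cell shares were 0%, 0%, 1.47% and 0%. Arg1 had a UMI in 12.8% of members, 12.5% of Gpnmb-free cells and 8.82% of T cells.

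Other genes were detected in most members. Trem2 had a UMI in 99.5% of members, Spp1 in 90.9%, Fabp5 in 84.8%, Thbs1 in 78.8%, Syngr1 in 74.9% and Gdf15 in 63.4%. In T cells at 5000 UMIs the share was 4.41% for Trem2, 13.2% for Spp1, 13.2% for Fabp5, 14.7% for Thbs1, 0% for Syngr1 and 5.88% for Gdf15. Before thinning the members' shares were 99.8% for Trem2, 96.2% for Spp1, 91.4% for Fabp5, 88.03% for Thbs1, 91.4% for Syngr1 and 75.1% for Gdf15, and for the rarer genes 26.2% for Cd5l, 8.83% for F7 and 28.4% for Arg1. Thinning left out 15 members, 66 Gpnmb-free cells and 42 T cells.

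Principal components of 1000 variable genes gave the main axes of difference among the members, each a small share of the variance. The first held 2.38%. It was led at its positive end by Ctsd, Ftl1, Lgals1, Ctss, Lgals3, Syngr1, Calr and Psap, and at its negative end by Marcksl1, Ccl4, Kctd12, Sdc4, Nfkbiz, Mrc1, Cxcl2 and Ccl3. In the 203 members nearest the positive end, mean UMIs per 5000 were 75.5 for Ctsd and 5.305 for Ccl4, and in the 203 nearest the negative end 24.8 and 37.1. This component correlated with depth before thinning at 0.44 and with Gpnmb at 0.22.

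The second component, with 1.62% of the variance, ran from genes that included Selenop, Fos, Jun, Lyz2, Serpinb6a, Atf3 and Wfdc17 to Cd14, Tlr2, Il1b, Fn1, Nlrp3, Rnf149, Tgm2 and Ccrl2, and its correlation with depth was 0.02. Il1b was at 3.52 in the 203 members nearest the Selenop end and 19.2 in those nearest the Cd14 end, Cd74 at 0.788 and 12.5, and Ccr2 at 0.251 and 0.872. The third, with 1.17%, set Apoe, Thbs1, Lyz2, Id3, Cebpb, Cd14, Hilpda and Ccrl2 against Neat1, Vim, H2-Ab1, Cd74, Actb, Tgfbi, Egr1 and Hspa1a, and correlated with Gpnmb at 0.28. There Cd74 was at 0.512 near the Apoe end and 11.3 near the Neat1 end, Gdf15 at 8.94 and 2.62, and Il1b at 13.2 and 6.66. The members with more class II RNA thus had more Il1b along the second component and less along the third.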

How the data were processed

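The authors deposited a 10x matrix of UMI counts for each of 4 libraries, made with Cell Ranger 3.0.2 on mm10 per the submitters' processing notes, with 31053 genes and no cell annotation used here. Counts were summed over the cells of each gate, and log2 ratios of the sums were scaled by edgeR 4.0.16 TMM-adjusted totals (R 4.3.3), with exact conditional binomial intervals; levels have exact Poisson intervals and shares exact binomial (Clopper-Pearson) ones, all at 95%. With 1 library per group no test was run. Genes with 100 or more UMIs over both sums were compared, leaving out digestive, mitochondrial and sex-linked genes from counts, and 2-fold was the size rule. Against a sum of 0, ratios used a floor of 3 counts per gate. Named genes were the given marks, the 15 highest and 10 lowest ratios, list members with high levels or large ratios, and the 12 highest and 6 lowest correlations. The members, rules and lists were chosen with earlier results of these data known. T cells were barcodes with 3 or more UMIs of T cell receptor complex genes, fibroblasts those with 10 or more of Col3a1. Both gates also required under 10 UMIs of C1qa, C1qb and C1qc together, so their low C1q RNA was set by the rule. No doublets were removed; Scrublet (scanpy 1.11.5) called 0.408% of C2D, so leaving out its highest scores was an alternative. Others were DESeq2 1.42.0 size factors, plain totals, minimums of 20 and 400 UMIs, 10% mitochondrial UMIs, 5 Gpnmb UMIs, 10000 to 20000 UMIs per cell, thinning to 5000 UMIs, S6W for S2D, and leaving out shared barcodes. Ratios were checked on simulated counts. Python 3.11.15, numpy 2.4.6, scipy 1.17.1 and pandas 2.3.3 were used.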

Additional observations from a re-analysis of the deposited data

Results flagged for a closer look

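Over all gated macrophages, caerulein over saline gave opposite signs at the 2 recovery times for Gpnmb and Fabp5; each group is 1 library, and the difference between times was not tested. Gpnmb had a log2 ratio of 5.31 (4.19 to 6.76) at 2 days and of -1.78 (-7.40 to 1.56) at 6 weeks, where it rested on 1 UMI in C6W and 4 in S6W. Fabp5 had 4.67 (4.08 to 5.33) at 2 days and -1.19 (-1.85 to -0.57) at 6 weeks, with 30 UMIs in C6W and 80 in S6W. In S6W 1 cell held 33 of these 80 UMIs, and without it the ratio at 6 weeks was -0.44 (-1.15 to 0.25), under 2-fold and with an interval that spans 0. Without the C6W cell that held 8 of the 30 UMIs it was -1.62 (-2.37 to -0.92). Both were computed after seeing the data. Ctsd (3.98 and 0.42), Spp1 (5.14 and 0.55) and Trem2 (2.30 and 0.63) were higher in the caerulein library at both times, but under 2-fold at 6 weeks. The level of Ctsd was 4.05 in S2D, 8.20 in S6W and 10.59 in C6W. In the same order Spp1 stood at 0.44, 0.72 and 1.01 and Trem2 at 2.35, 2.05 and 3.05. The saline libraries thus differed from each other by more than C6W from S6W for Ctsd, and by less for Trem2. Whether single cells carried these ratios was not tested.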

How the results depend on the processing

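No paired analysis was possible because each group has 1 library. Against Gpnmb-free cells, a minimum of 20 UMIs gave 289 genes 2-fold or more higher and 379 lower, and it was 57 and 62 with 400, 60 and 82 after thinning to 5000 UMIs, and 67 and 51 in cells with under 10 class II UMIs (the last chosen after seeing the data, like leaving out shared barcodes). Against S2D it was 365 and 281 with 400 UMIs, 481 and 338 after thinning, and 1519 lower with 20 UMIs. Against C6W it was 1092 and 1146 with 20 UMIs, 306 and 251 with 400, 405 and 301 after thinning, and 355 lower with plain totals. The share of gated cells with enough Gpnmb was 34.63% in C2D after thinning and 34.34% with 5 or more UMIs; it was 0 in S2D and S6W under both, and 0 in S6W with at most 10% mitochondrial UMIs. The alternative activation median reversed to 1.30 against S2D and 1.80 against C6W with 400 UMIs, and to 0.57 against S2D in cells of 10000 to 20000 UMIs; the cause was not tested. Of the other list medians 536 moved by under 0.2 and 100 by more. The 89, 67 and 114 gated cells of C6W, S2D and S6W limit every ratio against them.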
